A study of Homo sapiens with 6 samples.

Results

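The genes described here are the 9 members of the MHC class I antigen presentation pathway HLA-B, HLA-C, HLA-E, HLA-F, B2M, TAP1, TAP2, TAPBP and NLRC5. They were found by gene symbol in the deposited table of read counts, which held all 9 among its 27776 genes, and all 9 were among the 15865 genes that passed the filter on low counts. The libraries hold polyadenylated RNA of MDA-MB-231, an established line of triple-negative human breast cancer. By their titles 3 are of a control group and 3 of a Khellin-exp group, read here as exposed to khellin. Khellin is a furanochromone of the plant Ammi visnaga. Its dose and exposure time, and what the control cells received, are not given in the labels used here. The design text of the series calls the comparison group docetaxel-resistant whereas the sample titles call it control, so whether the control cells, and with them the exposed cells, were resistant to docetaxel is not settled by the labels. All libraries came from a single cell line, and no allele or transgene is named for either group.

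MHC class I molecules sit on the surface of nearly all nucleated cells and show fragments of the cell's own proteins to cytotoxic T cells and natural killer cells. A polymorphic heavy chain pairs with the light chain beta-2-microglobulin in the endoplasmic reticulum, where the transporter TAP delivers peptides from the cytosol and tapasin holds the empty heavy chain next to it until a peptide fits. Transcription of these genes is raised by interferons and by the coactivator NLRC5, and tumours often present less class I than the tissue they come from.

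The 6 libraries held 28631578 to 30956610 counts, of which the 9 members took 0.242% to 0.269%. At this depth 3 counts corresponded to 0.0977 to 0.103 CPM (counts scaled to a common library size with TMM factors), far below every member. The line's labelled identity was checked against marker lists. VIM, the mesenchymal filament gene, stood at 1971 ± 48.8 CPM (SD, n = 3) in control libraries, while the epithelial cadherin gene CDH1 had 0 reads in each control library and the oestrogen receptor gene ESR1 stood at 0.280 ± 0.104 CPM. Other genes of the same luminal and epithelial list were well expressed in controls, with KRT8 at 141 ± 6.31, ERBB2 at 103 ± 2.06, KRT18 at 79.4 ± 4.98 and KRT19 at 47.3 ± 2.88 CPM, and the 12 genes summed to 379 to 410 CPM. Of 18 blood cell markers 13 were among the rows used, and they summed to 3.30 to 3.85 CPM in controls and 3.65 to 4.74 CPM in khellin libraries. In controls the T cell gene CD3D stood at 0 in all libraries and the pan-leukocyte gene PTPRC at 0.0338 ± 0.0585 CPM. The highest of the list there were CD14 at 1.73 ± 0.248 and the T cell gene CD8A at 0.773 ± 0.150 CPM. In bulk RNA, fewer cells with a transcript and less of it per cell cannot be told apart.

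Of the 9 genes 7 lie within the MHC on chromosome 6, B2M lies on chromosome 15 and NLRC5 on chromosome 16. The RefSeq promoter table (GRCh38.p14) held 7 of the members, and the 250 bases before the annotated start are shown for 6 of them, because these are the genes whose values are compared most closely below. They are HLA-F (chr6:29723184-29723433, plus strand), HLA-B (chr6:31357180-31357429, minus strand), HLA-C (chr6:31272093-31272342, minus strand), B2M (chr15:44711267-44711516, plus strand), TAP1 (chr6:32853705-32853954, minus strand) and TAP2 (chr6:32838740-32838989, minus strand). Capitals mark matches, on either strand, to an interferon response core (GAAA, any 2 bases, GAAA), to the CCAAT box (searched as ATTGG), to a cyclic AMP response half-site (TGACG), to an NF-kB site (GGGGA followed by TTCCC). An interferon-gamma-activated site (TTC, any 3 bases, GAA) was also searched and had no match in the windows printed. The table held a second start for TAP1, whose window (chr6:32852762-32853011, minus strand, not printed) had such a site 189 bases before the start and none of the other motifs.
HLA-F: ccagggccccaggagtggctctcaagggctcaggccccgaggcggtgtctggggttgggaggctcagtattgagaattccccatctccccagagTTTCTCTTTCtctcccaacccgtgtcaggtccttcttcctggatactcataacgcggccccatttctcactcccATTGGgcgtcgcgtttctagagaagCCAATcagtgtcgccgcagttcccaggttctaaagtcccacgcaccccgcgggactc
HLA-B: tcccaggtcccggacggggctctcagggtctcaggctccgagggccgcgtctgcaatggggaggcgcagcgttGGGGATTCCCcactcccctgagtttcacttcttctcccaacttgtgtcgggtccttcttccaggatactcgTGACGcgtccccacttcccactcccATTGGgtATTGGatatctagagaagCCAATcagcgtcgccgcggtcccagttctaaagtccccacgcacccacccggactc
HLA-C: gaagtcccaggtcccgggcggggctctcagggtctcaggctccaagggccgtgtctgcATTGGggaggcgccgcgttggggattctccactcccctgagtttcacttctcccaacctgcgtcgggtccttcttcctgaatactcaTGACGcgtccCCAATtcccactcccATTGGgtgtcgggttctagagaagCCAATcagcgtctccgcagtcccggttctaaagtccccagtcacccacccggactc
B2M: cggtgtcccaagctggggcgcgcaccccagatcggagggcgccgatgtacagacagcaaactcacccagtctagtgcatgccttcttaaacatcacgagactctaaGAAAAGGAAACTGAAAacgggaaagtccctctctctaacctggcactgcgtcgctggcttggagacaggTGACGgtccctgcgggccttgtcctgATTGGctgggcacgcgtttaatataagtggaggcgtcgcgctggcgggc
TAP1: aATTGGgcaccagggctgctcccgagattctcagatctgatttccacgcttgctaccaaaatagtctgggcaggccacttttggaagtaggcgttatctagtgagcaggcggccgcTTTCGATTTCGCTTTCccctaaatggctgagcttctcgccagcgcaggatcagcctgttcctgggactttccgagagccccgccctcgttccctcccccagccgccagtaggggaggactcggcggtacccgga
TAP2: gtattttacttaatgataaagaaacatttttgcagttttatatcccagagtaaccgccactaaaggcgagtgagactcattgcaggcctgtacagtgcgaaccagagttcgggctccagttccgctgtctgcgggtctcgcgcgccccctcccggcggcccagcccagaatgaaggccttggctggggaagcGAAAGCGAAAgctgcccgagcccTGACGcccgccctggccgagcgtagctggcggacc

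The heavy chain promoters were close relatives of one another. HLA-B and HLA-C were identical at 91.87% of 246 aligned bases, and HLA-F matched HLA-B at 81.78% of 247 and HLA-C at 82.72% of 243. Each of these 3 windows held CCAAT boxes on both strands, the nearest on the minus strand 56 or 57 bases before the start. HLA-B and HLA-C also held a TGACG half-site, 106 and 105 bases before the start, for which HLA-F had no exact match, whereas HLA-F held an interferon core 156 bases before its start without an exact match in either of them. The exact NF-kB match stood in HLA-B alone among the 3. Overlapping pairs of interferon cores stood in the windows of B2M (144 and 138 bases before the start), TAP1 (134 and 128) and TAPBP (20 and 14), and TAP2 had a single one (58). Over all 35116 windows of this length in the table, 3.021% held an interferon core, 0.068% the NF-kB site, 6.567% the interferon-gamma-activated site, 32.008% a CCAAT box and 21.218% a TGACG half-site. Such matches describe letters only.

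Khellin and control libraries differed little over these genes. HLA-F and the coactivator gene NLRC5 rose, TAP2 fell, and 6 members had no call. The differences were tested for all genes with edgeR's quasi-likelihood test at a Benjamini-Hochberg adjusted p under 0.05, which called 19.4% of all tested genes, 10.6% higher and 8.82% lower in khellin libraries. The 3 calls among 9 genes are a share of 33.3%, and at this number of genes each call weighs heavily. CPM of 5 members did not overlap between the groups (2 above and 3 below control), against 38.2% of all tested genes (20.2% above and 18% below). The median log2 fold change of the 9 was -0.02, and that of all tested genes 0.00. With library size alone in place of TMM factors the median of the 9 was 0.02 and that of all genes 0.05.

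**Figure D1:**
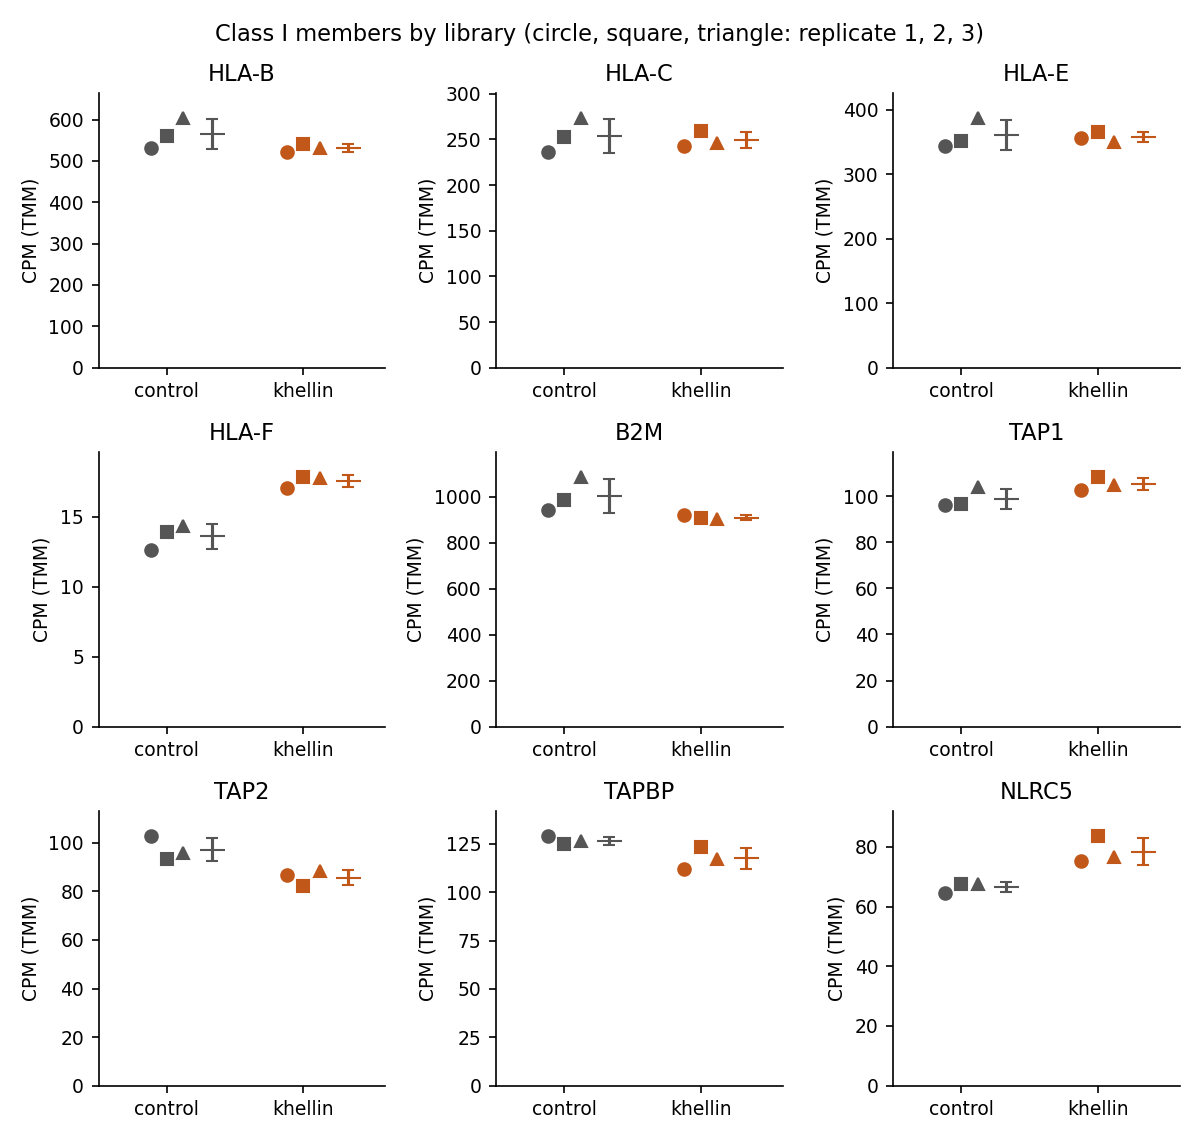
CPM of the 9 members in each library (vertical axes start at 0, scaled per gene), with circle, square and triangle for replicates 1, 2 and 3 and the bar for the mean ± SD (n = 3 per group). HLA-F and NLRC5 sit higher in all 3 khellin libraries and TAP2 lower, while HLA-B, HLA-C, HLA-E and TAP1 overlap between the groups.

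Among the heavy chains, the classical genes did not pass the test. HLA-B (ENSG00000234745, chromosome 6, 31353872 to 31367067, minus strand), which presents peptides to CD8+ T cells, stood at 532, 560 and 603 CPM in control replicates 1 to 3 and at 521, 540 and 530 CPM in khellin replicates 1 to 3. Control replicate 3 was the highest of the 6, and 2 of 3 khellin libraries fell below the lowest control. The log2 fold change was -0.09 (SE 0.0503, edgeR adjusted p = 0.239), and its 95% interval ran from 0.868-fold to 1.02-fold. HLA-C (ENSG00000204525, 31268749 to 31272130, minus strand), the classical heavy chain that is the main ligand of inhibitory killer cell receptors, had 236, 253 and 273 CPM in controls and 243, 260 and 246 CPM in khellin libraries, so that all khellin values lay within the control range. Its log2 fold change of -0.02 (SE 0.0577, edgeR adjusted p = 0.816) had an interval from 0.899-fold to 1.08-fold, and its sign was positive with library size alone (0.02) and without control replicate 3 (0.03).

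The non-classical heavy chains went apart. HLA-E (ENSG00000204592, 30489509 to 30494194, plus strand), which displays leader peptides of other heavy chains to the natural killer receptor NKG2A, stood at 345, 351 and 387 CPM in controls and 357, 366 and 350 CPM in khellin libraries. The groups overlapped, with both the lowest and the highest value in control. Its log2 fold change was -0.01 (SE 0.0511, edgeR adjusted p = 0.889, interval 0.915-fold to 1.07-fold) and was positive with library size alone (0.03), without control replicate 3 (0.04) and without khellin replicate 3 (0.00). HLA-F (ENSG00000204642, 29722775 to 29738528, plus strand), which reaches the surface also without peptide, had 12.6, 13.9 and 14.4 CPM in controls and 17.0, 17.8 and 17.8 CPM in khellin libraries. Every khellin library lay above every control. It rose 1.29-fold (log2 fold change 0.36, SE 0.0722, edgeR adjusted p = 0.00764, interval 1.15-fold to 1.44-fold), and the call was kept under all 15 alternative fits, with adjusted p from 0.00113 to 0.0440.

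HLA-F shares 11928 of its 15754 bases with HLA-F-AS1, a noncoding RNA gene on the opposite strand. HLA-F-AS1 went from 5.96 ± 0.381 to 6.67 ± 0.476 CPM (n = 3 per group) and did not pass the test (log2 fold change 0.16, SE 0.0944, edgeR adjusted p = 0.271). The strand setting of the authors' counting is not given in the sources used here, so reads of the pair cannot be told apart where their exons overlap. Heavy chain genes also resemble one another. In GENCODE release 29, 6.711% of the 50-base stretches of the longest coding transcript of HLA-C, 5.133% of HLA-E, 2.537% of HLA-B and 1.702% of HLA-F occurred in transcripts of other genes, and at 100 bases the shares were 0.275%, 0.6%, 0% and 0%. How reads that match several genes were treated is not given, and alleles of the line that differ from the reference could lower its counts.

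B2M, the light chain shared by all heavy chains (ENSG00000166710, chromosome 15, 44711358 to 44718851, plus strand), was the most abundant member by CPM, with 943, 986 and 1085 CPM in controls and 921, 906 and 903 CPM in khellin libraries. Every khellin library lay below every control, but the spread was 72.7 CPM (SD) in control and 9.35 CPM in khellin libraries. The log2 fold change of -0.14 (SE 0.0527, interval 0.835-fold to 0.983-fold) did not pass after adjustment (edgeR adjusted p = 0.0903). It passed without control replicate 1 (adjusted p = 0.0184) and with no filter on low counts (0.0244), and its adjusted p ranged from 0.0184 to 0.287 over the 15 alternatives. B2M, HLA-B, HLA-C, HLA-E, HLA-F and TAP1 were each highest among controls in replicate 3 and lowest in replicate 1. The deviation from the control mean was -0.09 (replicate 1), -0.03 (replicate 2) and 0.11 (replicate 3) on the log2 scale for B2M and -0.10, -0.00 and 0.11 for HLA-C.

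The libraries differed along gene length and GC content, khellin replicate 2 among them. Tested genes of the length and GC content of HLA-C (62.7% GC) deviated by -0.12 on the log2 scale in control replicate 1 and by 0.07 in control replicate 3 from the mean of the 6 libraries, in a smooth fit over 15299 genes. For HLA-B the same fit gave -0.09 and 0.05. For B2M (40.6% GC, 6079 bases) it gave 0.10 and -0.10, opposite to the deviations of B2M itself. In khellin replicate 2 the fit gave 0.06 for HLA-C, 0.05 for HLA-B and -0.07 for B2M. Length was that of merged exons and GC content that of the longest annotated transcript of each gene. The longest coding transcript of B2M has 1705 bases, so these 2 values may not describe the B2M RNA that was counted. With this trend taken out, an alternative added after the data were seen, HLA-B passed the test as lower (log2 fold change -0.13, SE 0.0276, edgeR adjusted p = 0.00423), HLA-C (-0.07, adjusted p = 0.0897) and HLA-E (-0.04, adjusted p = 0.373) did not, and B2M stood at -0.16 with an SE of 0.104 (adjusted p = 0.287). The same correction raised the number of calls over all genes to 2104 higher and 3056 lower, from 1681 and 1399.

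**Figure D2:**
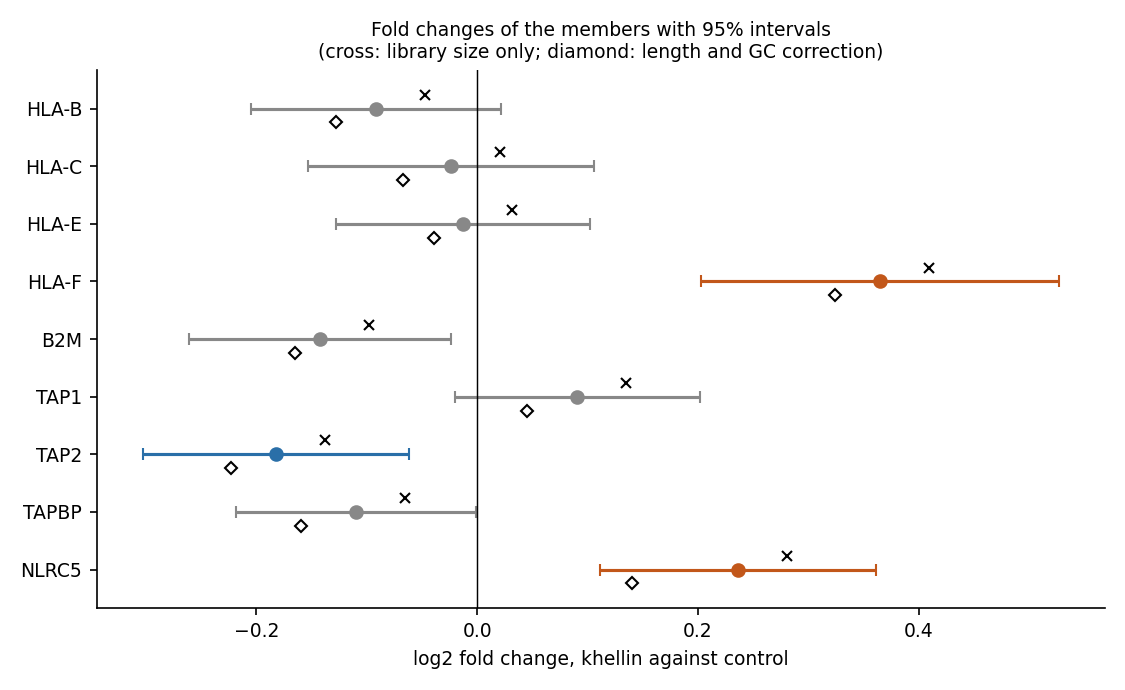
Log2 fold changes of the 9 members in khellin against control libraries (n = 3 per group), as points with 95% intervals from edgeR's quasi-likelihood fit (orange higher, blue lower, grey not called). Crosses give the value with library size alone and diamonds the value with the length and GC correction, and all 3 values stand right of 0 for HLA-F, NLRC5 and TAP1 and left of 0 for HLA-B, B2M, TAP2 and TAPBP.

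The peptide loading genes did not move together. TAP1 (ENSG00000168394, 32845209 to 32853816, minus strand) and TAP2 (ENSG00000204267, 32821833 to 32838739, minus strand) encode the subunits of one heterodimeric peptide pump. TAP1 stood at 96.2, 96.4 and 104 CPM in controls and 103, 108 and 105 CPM in khellin libraries, and the groups overlapped through control replicate 3. Its log2 fold change was 0.09 (SE 0.0495, edgeR adjusted p = 0.236, interval 0.986-fold to 1.15-fold). TAP2 had 103, 93.4 and 95.7 CPM in controls and 86.6, 82.1 and 88.3 CPM in khellin libraries, with every khellin library below every control. The fall was 0.18 in log2 units (log2 fold change -0.18, SE 0.0538; adjusted p = 0.0416 by edgeR, interval 0.811-fold to 0.958-fold).

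The call on TAP2 stood close to the threshold. It was lost with library size alone (edgeR adjusted p = 0.0984) and without control replicate 1 (0.0729), control replicate 2 (0.0716), khellin replicate 1 (0.117), khellin replicate 2 (0.146) or khellin replicate 3 (0.0935). In the same order the log2 fold change was -0.14, -0.14, -0.21, -0.19, -0.15 and -0.21, against -0.18 with all libraries and TMM factors. The adjusted p ranged from 0.00324 to 0.146 over the 15 alternatives. A second annotated gene on the same strand, ENSG00000250264, covers all 16907 bases of TAP2 and had at most 1 read per library, and 35.8% of the 50-base stretches of TAP2 occurred in transcripts of other genes. The row of PSMB9, on the opposite strand, covers all 8608 bases of TAP1 and had 272 to 388 reads per library. How reads in such overlaps were assigned is not given in the sources used here.

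TAPBP, which encodes tapasin (ENSG00000231925, 33299694 to 33314284, minus strand), stood at 129, 125 and 127 CPM in controls and at 112, 123 and 117 CPM in khellin libraries. All khellin values lay below the controls, khellin replicate 2 by a small margin. Its log2 fold change of -0.11 (SE 0.0485, log2 interval -0.22 to -0.00) did not pass (edgeR adjusted p = 0.149), but passed with the length and GC correction (-0.16, adjusted p = 0.00888).

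NLRC5 (ENSG00000140853, chromosome 16, 56989485 to 57083531, plus strand) encodes the coactivator that binds class I promoters through the RFX factors. It stood at 64.6, 67.6 and 67.5 CPM in controls and at 75.3, 83.5 and 76.5 CPM in khellin libraries. All khellin libraries lay above all controls, and khellin replicate 2 was the highest. It rose 1.18-fold (log2 fold change 0.24, SE 0.0556, edgeR adjusted p = 0.0163, interval 1.08-fold to 1.28-fold). Leaving out control replicate 2 ended the call (adjusted p = 0.0609), as did leaving out khellin replicate 2 (0.0685) or khellin replicate 3 (0.0572), out of a range of 0.00465 to 0.0685 over the 15 alternatives. The log2 fold change was then 0.25, 0.19 and 0.25, so it shrank only without khellin replicate 2. With the length and GC correction the call was kept at a smaller log2 fold change of 0.14 (SE 0.0377, adjusted p = 0.0139). Tested genes of the length and GC content of NLRC5 deviated by -0.07, -0.01 and -0.06 on the log2 scale in control replicates 1 to 3. In khellin replicates 1 to 3 they deviated by 0.02, 0.08 and 0.04.

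Levels can be compared between genes only per length. Per kilobase of the longest coding transcript, B2M led with 589 ± 42.7 CPM in control libraries (SD, n = 3), followed by HLA-B at 365 ± 23.1, HLA-C at 163 ± 12 and HLA-E at 139 ± 8.69. The loading genes formed the next tier, with TAPBP at 33.7 ± 0.546, TAP1 at 33.4 ± 1.47 and TAP2 at 17.1 ± 0.844 CPM per kilobase, and the values of TAPBP and TAP1 overlapped. NLRC5 at 9.76 ± 0.249 and HLA-F at 8.34 ± 0.546 were the lowest. In khellin libraries the order was the same except that TAP1 (34.7 to 36.5 CPM per kilobase) stood above TAPBP (29.8 to 32.8), and no other neighbours overlapped in either group. With merged exon lengths HLA-B (185 CPM per kilobase in control) stood above B2M (165) and HLA-E (121) above HLA-C (101). TAPBP then stood above TAP1 in both groups, at 25.1 against 20.6 in control and 23.2 against 21.9 in khellin libraries. The order within the upper tier, and that of TAPBP and TAP1, thus depends on the transcript length taken.

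Ratios of reads within a library need no scaling factor and show where members changed unequally. The summed reads of the 4 heavy chain members were 1.19, 1.2 and 1.18 times those of B2M in control and 1.24, 1.31 and 1.27 times in khellin libraries. The ratio was higher in all khellin libraries, by 0.09 on the log2 scale (exact permutation p = 0.1, n = 3 per group). Other heavy chain genes enter none of these ratios. TAP1 had 0.938, 1.03 and 1.09 reads per read of TAP2 in control and 1.19, 1.32 and 1.19 in khellin libraries, also without overlap, a log2 difference of 0.27 (exact permutation p = 0.1, n = 3 per group). With the length and GC correction TAP1 stood at 0.05 and TAP2 at -0.22 on the log2 scale, so the gap between them was about as large.

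Within the heavy chains the shifts were smaller. HLA-B had 2.25, 2.22 and 2.21 reads per read of HLA-C in control and 2.14, 2.08 and 2.15 in khellin libraries. The ratio was lower in all khellin libraries, with a log2 difference of -0.07 (exact permutation p = 0.1, n = 3 per group). The ratio of HLA-E to HLA-B went from 0.639 ± 0.0110 to 0.675 ± 0.0128, a log2 difference of 0.08 (exact permutation p = 0.1, n = 3 per group), again without overlap. The tests were 2-sided, 0.1 is the smallest p that 3 against 3 libraries allow, and it was also the value after Benjamini-Hochberg adjustment over the 4 ratios, so none could pass 0.05. GC content, which set the libraries apart, differs between the partners. In the longest annotated transcript it was 40.6% for B2M against 54.8% to 62.7% for the heavy chains, and 57.5% for TAP1 against 49.1% for TAP2.

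**Figure D3:**
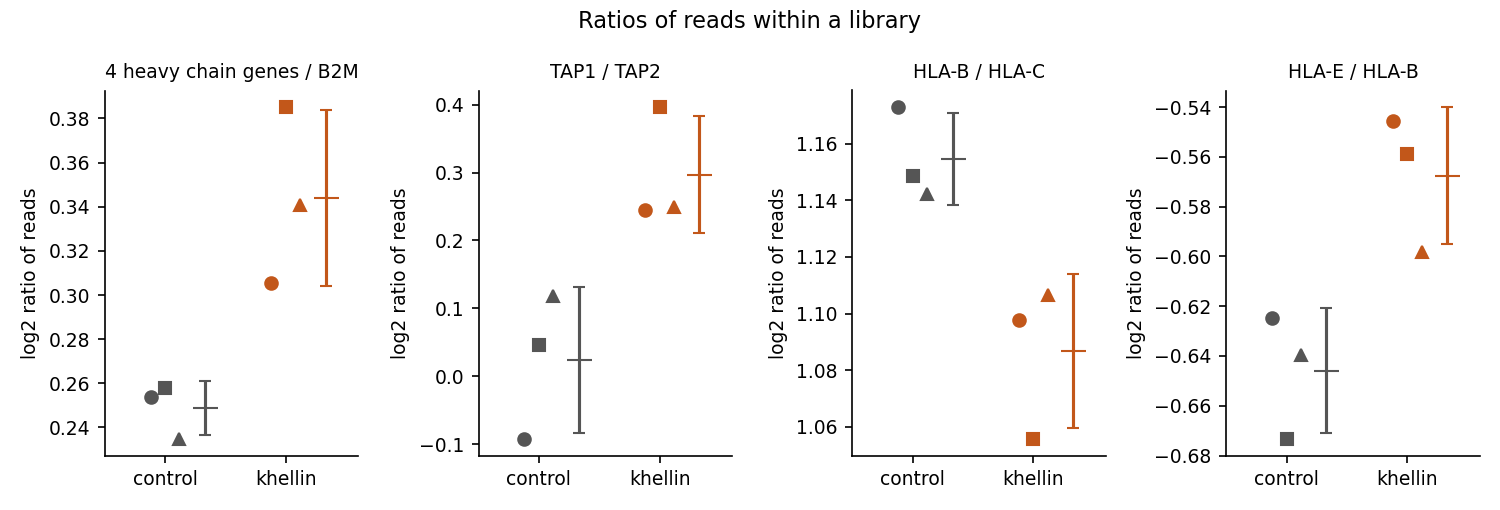
Log2 ratios of reads in each library, with circle, square and triangle for replicates 1, 2 and 3 and the bar for the mean ± SD (n = 3 per group). The axes differ between panels and do not start at 0, and in each of the 4 panels the control and khellin libraries do not overlap.

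The partners of the pathway were described with 6 lists of 88 genes, 85 of which were in the table and 83 tested. The proteasome list held the immunoproteasome subunits, their constitutive counterparts and the proteasome activators. Of 9 genes tested none rose and 1 fell, a share of 11.1% called against 19.4% of all genes, with a median log2 fold change of -0.07 (0.03 without control replicate 3). The gene that fell was PSME3, the nuclear proteasome activator, with 328 ± 5.36 CPM in controls and 293 ± 1.82 CPM in khellin libraries (log2 fold change -0.16, SE 0.0380, edgeR adjusted p = 0.0158). Its call was lost with library size alone, without control replicate 2 and without any 1 khellin library, with adjusted p from 0.0544 to 0.0882. PSMB8, PSMB9 and PSMB10, the interferon-inducible subunits, were chosen after their values were seen and stood at -0.01, 0.13 and 0.19. None of these 3 passed the test (edgeR adjusted p from 0.157 to 0.951), though PSMB9 did without control replicate 3 (0.29, adjusted p = 0.0269). The constitutive subunit genes PSMB7 and PSMB5 stood at -0.17 and -0.11 without passing, though PSMB7 passed as lower without control replicate 1 (0.0134), with no filter (0.0187) and after correction for length and GC content (0.00242), and PSMB5 after that correction (0.0487).

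Of 14 genes that trim peptides or help to load them, none rose and 3 fell, a share of 21.4% called, with a median of -0.01 (0.04 with library size alone, and above 0 also without control replicate 1 or khellin replicate 2 and with a minimum of 1 CPM in 3 libraries). BCAP31, which encodes a cargo receptor for export of class I from the endoplasmic reticulum, had 212, 226 and 249 CPM in controls and 184, 188 and 179 CPM in khellin libraries. It fell by 0.32 (SE 0.0593, edgeR adjusted p = 0.00572), the largest fall of this list. CALR and PDIA3, the chaperone and the disulfide isomerase of the peptide loading complex, fell by 0.20 (SE 0.0495) and 0.14 (SE 0.0398). The call on PDIA3 was lost under 7 of the 15 alternatives and that on CALR under 4, each time with an adjusted p of at most 0.154. The chaperone genes HSPA5 and CANX stood at -0.03 and 0.00, and ERAP1, the trimming peptidase of the endoplasmic reticulum, at -0.02, with no call.

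Factors that act on class I promoters moved in both directions, with 4 of 16 higher and 1 lower (31.2% called, median 0.03, and -0.00 with the length and GC correction). RFX5, a subunit of the complex that recruits NLRC5 to these promoters, had 87.4, 85.9 and 90.3 CPM in controls and 101, 103 and 104 CPM in khellin libraries. The groups were well apart, and RFX5 rose by 0.23 (SE 0.0444, edgeR adjusted p = 0.00754), a call lost by a narrow margin without control replicate 2 or khellin replicate 3 (0.0516 and 0.0513). IRF1, an interferon-induced activator of class I, rose by 0.26 (SE 0.0714), and EZH2, which encodes a repressive histone methyltransferase, by 0.16 (SE 0.0414). Both lost the call without control replicate 2 or khellin replicate 1, 2 or 3 (at most 0.128), and EZH2 also with DESeq2 (0.0625). NFYA, a subunit of the factor that binds the CCAAT boxes shown above, fell by 0.25 (SE 0.0494, edgeR adjusted p = 0.00721), and the NF-kB genes RELA and NFKB1 stood at -0.05 and -0.16 without passing, NFKB1 with an adjusted p of 0.0528 that ended below 0.05 under 5 of the 15 alternatives, and RELA passed as lower with the length and GC correction (-0.10, adjusted p = 0.0353). CIITA, the relative of NLRC5 that drives class II genes, went from 4.20 ± 0.430 to 8.87 ± 0.310 CPM (log2 fold change 1.08, SE 0.0963), next to 0.24 for NLRC5, a difference between the 2 genes that was not tested.

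Of 18 tested genes of interferon signalling, 3 rose and 1 fell, a share of 22.2% called, with a median of 0.23 that was 0.10 when genes had to reach 1 CPM in 3 libraries. IFNL1, a type III interferon gene, stood at 2.20, 2.51 and 2.38 CPM in controls and at 4.28, 5.28 and 3.91 CPM in khellin libraries. It rose by 0.92 (SE 0.140, edgeR adjusted p = 0.00200), and no khellin library overlapped with control. STAT2, a subunit of the factor that binds interferon response elements, rose by 0.33 (SE 0.0503) from 92.3 ± 3.24 to 116 ± 4.74 CPM. USP18, a feedback inhibitor of the interferon receptor, rose by 0.51 (SE 0.108) and was not called when khellin replicate 1 was left out (0.0511). The receptor kinase genes JAK1 and TYK2 stood at 0.03 and 0.17 without passing, TYK2 with an adjusted p of 0.0589 that ended below 0.05 under 5 of the 15 alternatives.

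Class I relatives and ligands of natural killer receptors had 3 of 12 tested genes higher and 1 lower (33.3% called, median 0.12). HFE, a class I-like regulator of iron uptake, stood at 16.5 ± 0.507 CPM in control libraries against 21.6 ± 0.364 under khellin and rose by 0.39 (SE 0.0617, edgeR adjusted p = 0.00225). MICB and RAET1L, both ligands of the activating receptor NKG2D, rose by 0.21 (SE 0.0499) and 0.51 (SE 0.145), whereas MICA, the close paralogue of MICB, stood at -0.18 (SE 0.0603, edgeR adjusted p = 0.0686). MICA passed as lower without control replicate 1 (0.0115), with no filter on low counts (0.0239), with a replicate block (0.0463) and after correction for length and GC content (0.00135). MICB lost its call without control replicate 2 or khellin replicate 1, 2 or 3 (at most 0.0720), and RAET1L under 6 of the 15 alternatives. PROCR, which encodes the class I-like receptor of protein C, fell by 0.31 (SE 0.0638, edgeR adjusted p = 0.00979) and was not called when khellin replicate 1 was left out (0.0570). The gene of the neonatal Fc receptor, FCGRT, which also pairs with B2M, stood at 0.02 with no call.

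Genes described as acting on class I turnover or on class I levels had 2 of 14 tested members higher and 4 lower (42.9% called, median -0.13). With library size alone 2 were higher and 2 lower. The 4 lower calls became 1 without control replicate 2, 2 without any 1 khellin library and 9 with the length and GC correction. MARCHF4, a membrane ubiquitin ligase that lowers surface class I when overexpressed, had 47.6, 50.9 and 49.9 CPM in controls and 35, 34.7 and 34.1 CPM in khellin libraries. It fell by 0.52 (SE 0.0552, edgeR adjusted p = 0.00029), with no overlap between groups, while its relative MARCHF8 rose by 0.33 (SE 0.0584). TRAF3, IRGQ and HM13, the last encoding the signal peptide peptidase that releases peptides for HLA-E, fell by 0.24 (SE 0.0476), 0.19 (SE 0.0493) and 0.18 (SE 0.0498). Their calls were lost without control replicate 2 (edgeR adjusted p of 0.0518, 0.0925 and 0.10), and those of IRGQ and HM13 also without any 1 khellin library and with library size alone (at most 0.139), HM13 with upper quartile factors too (0.0593). NBR1 and TMEM127 stood at -0.09 and 0.01 without passing, though NBR1 passed as lower without control replicate 3 (0.0326) and with the length and GC correction (0.00586).

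**Figure D4:**
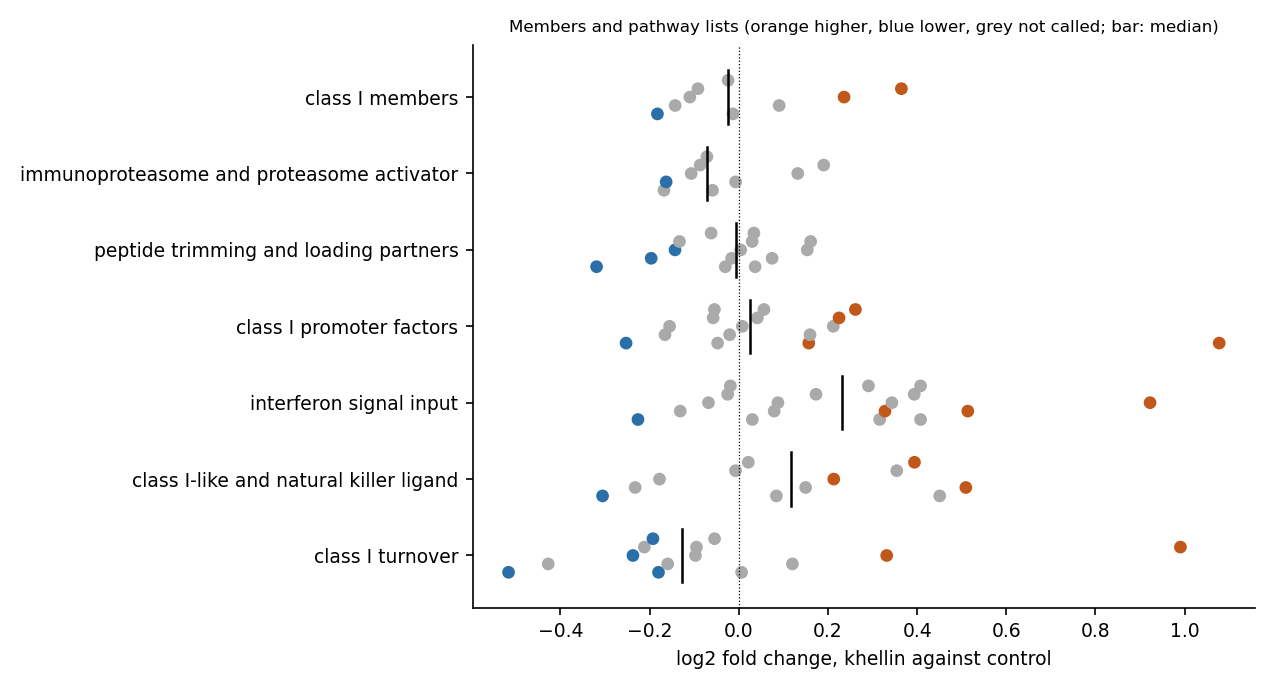
Log2 fold changes of every tested gene of the class I members and of the 6 pathway lists in khellin against control libraries (n = 3 per group), with orange for higher, blue for lower and grey for not called, and a black bar at each list's median. The class I members lie between -0.18 and 0.36 with a median of -0.02, while CIITA among the promoter factors lies at 1.08 and IFNL1 among the interferon genes at 0.92.

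The 7 members on chromosome 6 were set against their neighbours between the start of HLA-F and the end of TAPBP (29722775 to 33314284). Of 131 tested genes in this span 23 rose and 8 fell, a share of 23.7% called against 19.4% of all genes, and without the members 22 of 124 rose and 7 fell. The smallest p was that of the class II gene HLA-DRA, with a change from 8.87 to 20.8 CPM (log2 fold change 1.23, SE 0.0749). CFB, a complement factor gene, rose by 0.73 (SE 0.0836), the collagen receptor gene DDR1 by 0.50 (SE 0.0655) and NRM, which encodes an inner nuclear membrane protein, by 0.35 (SE 0.0544). NEU1, a lysosomal sialidase gene, fell by 0.39 (SE 0.0474) and VARS1, which encodes a tRNA synthetase, by 0.31 (SE 0.0473). HLA-B, HLA-C and HLA-E thus stood near 0 within a stretch of genes that went both ways.

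**Figure D5:**
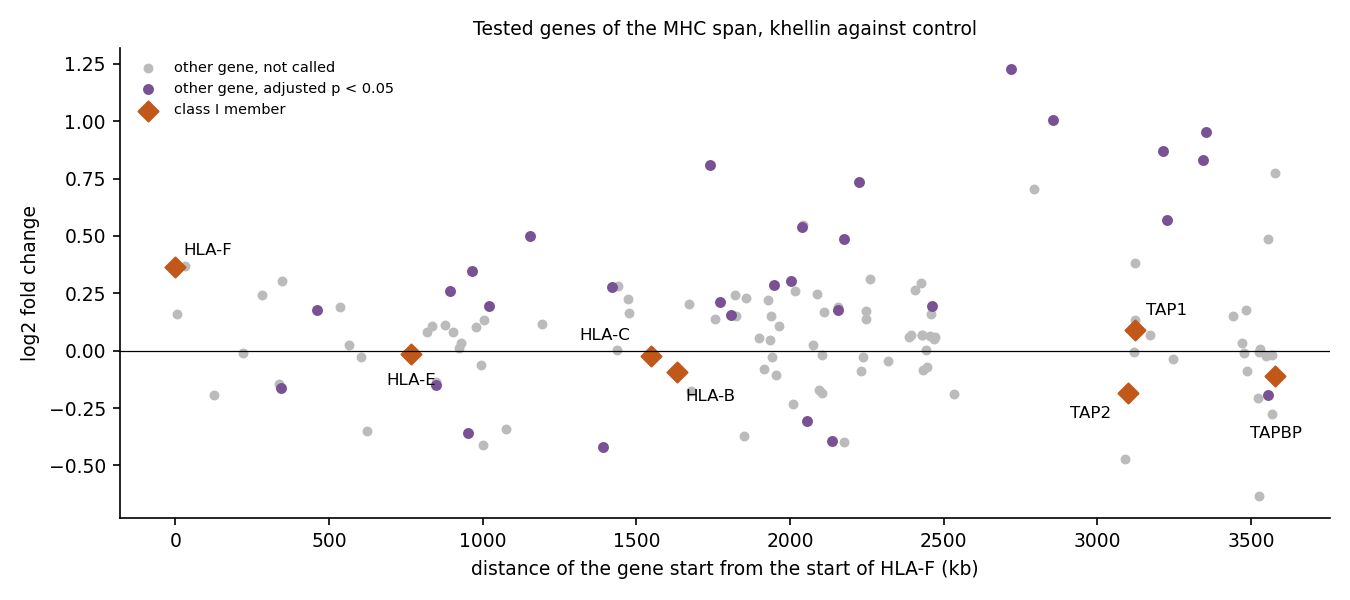
Log2 fold change of the 131 tested genes of the MHC span in khellin against control libraries, by the distance of each gene's start from the start of HLA-F in kilobases. Diamonds are the 7 members, violet points are other genes past the threshold and grey points those that are not, and HLA-DRA at 1.23 is the highest point.

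The members followed different courses over the 6 libraries. Pearson correlations of log2 CPM, given as a description over 6 libraries that share the group difference and its depth, were 0.94 between HLA-B and B2M and 0.92 between HLA-C and HLA-E. HLA-F went with NLRC5 (0.94), and TAP2 ran opposite to both (-0.96 with NLRC5 and -0.94 with HLA-F). Among 9742 genes of at least 10 CPM, the 5 most like NLRC5 were MMP15, ERBB2, BAHCC1, PLAGL2 and SYNPO (r from 0.995 to 0.998), and 281 genes had r above 0.95. The 5 most like B2M were MTCH2, PSMD13, COX7A2L, PSMA5 and MRPL20 (r from 0.992 to 0.996), of which PSMD13 and PSMA5 encode proteasome subunits, and 256 genes had r above 0.95. With so many genes at that level over 6 points, the names at the top are not set apart from the rest.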

How the data were processed

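The deposited values are raw read counts per gene for 6 libraries, which the authors made with fastp, HISAT2 and HTSeq, per the submitters' processing notes. Versions, strand setting, build and annotation are not given in the sources used here. GRCh38 was inferred: of 25378 identifiers also found in GENCODE release 29, 25332 overlapped their place there.

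Counts were scaled with TMM factors, filtered with filterByExpr and tested with edgeR 4.0.16 (robust quasi-likelihood fit, group only, 2-sided, Benjamini-Hochberg over 15865 genes). The SE is the absolute log2 fold change over the square root of F, and 95% intervals use its t quantile. Nothing in the labels beyond the words biological replicate says that libraries came from separate cultures, so p-values measure the spread between these samples. Chi-square per degree of freedom between libraries of a group ranged from 1.91 to 20.8, so none was counted as a copy.

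The alternatives replaced TMM by upper quartile or RLE factors or by library size alone, the filter by none or by 1 CPM in 3 libraries, and the test by DESeq2 1.42.0 or limma-voom (limma 3.58.1). Further fits had a replicate block, left out each library in turn or, added after seeing the data, used a length and GC correction with mgcv 1.9.3. The fit was also run on simulated counts with a single dispersion for all genes and no length or GC trend. The changes put in were larger than that of any member, so the simulation does not bear on calls of the members' size. R 4.3.3, Python 3.11.15 and Biopython 1.88 were used.

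The members and lists were chosen with earlier results of these data known. Genes named are the members; of each list up to 8 called genes by p and the 2 uncalled genes of highest CPM; the 5 genes most correlated with NLRC5 and B2M; and the 6 called genes of smallest p, of at least 10 CPM and in no list, between HLA-F and TAPBP. PSMB8, PSMB9, PSMB10 and ERAP1 were added after their values were seen. A few genes that this rule names are not reported here by name, though they stay in the counts and medians of their lists.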

Additional observations from a re-analysis of the deposited data

How the results depend on the processing

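Of the 9 members, HLA-F kept its call under all 15 alternative fits, and HLA-B, TAP1, B2M, TAP2, TAPBP and NLRC5 kept their direction. Members called higher numbered 2 and lower 1, with 0 lower under library size alone, 2 without a filter and 3 with the length and GC correction, and 1 to 2 higher and 0 to 1 lower with 1 library left out. Over all genes the counts were 919 to 1990 higher and 643 to 1722 lower with 1 library left out. Without control replicate 2 or any 1 khellin library they were 919 to 1073 higher and 643 to 836 lower, against 1681 and 1399 with all libraries. The length and GC correction gave 3056 lower. Of the calls 54.6% were higher, against 69.1% with library size alone, 48.7% with DESeq2 and 40.8% with the length and GC correction. Pathway list genes numbered 12 higher and 11 lower, with 5 lower under library size alone, 24 lower with the length and GC correction, and 7 to 16 higher and 4 to 15 lower with 1 library left out. In the MHC span the counts of 23 and 8 became 4 lower under library size alone, 20 lower with the length and GC correction, and 12 to 31 higher and 3 to 11 lower with 1 library left out. None of the ratios overlapped between the groups, so leaving out 1 library could not turn their sign. With 1 library left out the log2 differences were 0.07 to 0.11 for heavy chains to B2M and 0.21 to 0.32 for TAP1 to TAP2. They were -0.08 to -0.05 for HLA-B to HLA-C and 0.06 to 0.09 for HLA-E to HLA-B. The causes were not tested.

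Among the genes named, signs turned only for genes without a call. Values were 0.0206 with library size alone for HLA-C and 0.0315 for HLA-E, 0.0137 for HSPA5, 0.0373 for PSMB8 and 0.0280 for ERAP1 under the same setting. CANX stood at -0.00836 with RLE factors and with DESeq2, -0.000026 without a filter and -0.0155 with the length and GC correction. That correction also gave -0.00404 for JAK1, -0.0294 for FCGRT and -0.0435 for TMEM127, which stood at -0.00631 with RLE factors and with DESeq2. With 1 library left out the log2 fold changes ran from -0.0752 to 0.0298 for HLA-C, -0.0460 to 0.0377 for HLA-E, -0.0484 to 0.0579 for CANX, -0.0345 to 0.0775 for JAK1, -0.0533 to 0.0989 for FCGRT, -0.0137 to 0.0235 for TMEM127, -0.0304 to 0.0345 for PSMB8 and -0.0475 to 0.0206 for ERAP1.

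Deviations of same-numbered libraries of the groups correlated at 0.47, 0.08 and -0.43 (replicates 1, 2 and 3). Control replicate 1 correlated about as well with khellin replicate 3 (0.49), and control replicate 3 best with khellin replicate 2 (0.61). No pairing by number was seen. The control libraries and khellin replicate 2 also differed along gene length and GC content, so these correlations cannot settle whether the numbers pair the samples. A replicate block gave the same member counts, 2 higher and 1 lower, and 1533 higher and 1282 lower genes in all.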

Other observations

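The marker lists used to check the line also moved between groups. Over all tested genes 19.4% were called, 10.6% higher and 8.82% lower in khellin libraries. The shares called were 60% of the tested basal and mesenchymal, 40% of the luminal and epithelial and 33.3% of the blood cell markers. With 10, 10 and 3 tested genes each call weighs heavily. Of 10 markers of basal and mesenchymal breast lines 3 were higher and 3 lower in khellin libraries by edgeR's quasi-likelihood test, with FN1, the fibronectin gene, from 233 ± 19.1 to 361 ± 8.0 CPM and S100A4 from 13.9 ± 2.15 to 26.9 ± 0.724 CPM (n = 3 per group), CAV1 up by 0.32 on the log2 scale, and MSN, CD44 and EGFR lower by log2 fold changes of -0.32, -0.29 and -0.22. Of 12 luminal and epithelial markers 10 were tested and 4 were higher, the keratin gene KRT8 by 0.32, ERBB2 by 0.19, ERBB3 by 0.73 and the mucin gene MUC1 by 0.97, while CDH1 stayed at 0 reads in control and 0.0556 ± 0.0183 CPM in khellin libraries. Of the 3 tested blood cell markers CD14 was higher, from 1.73 ± 0.248 to 2.57 ± 0.405 CPM. Whether any of these changes bears on the class I members was not tested.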
